A study of Mus musculus with 35 samples.

Results

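The glucocorticoid receptor gene Nr3c1, 3 genes whose transcription the receptor is known to raise (Fkbp5, Tsc22d3 and Sgk1) and the metallothionein genes Mt1 and Mt2 were followed across all samples of microglia sorted from 3 brain regions. These 6 genes were chosen by symbol and are 6 of the 21236 genes in the count table. Microglia had been sorted by tdTomato fluorescence from adult mice given tamoxifen that carried Tmem119-2A-CreERT2 and the reporter Ai14(RCL-tdTomato)-D, in which the microglial gene Tmem119 drives a tamoxifen-dependent Cre recombinase that switches on the red reporter. All groups shared that genotype and tamoxifen, and no untreated or Cre-negative animals were analysed here. The 35 samples came from midbrain (n = 12), striatum (n = 12) and prefrontal cortex (PFC, n = 11) of 6 male and 6 female mice, numbered S1 to S12, with no PFC sample of S3. The number was taken as the mouse that gave the samples, and odd numbers are male and even numbers female.

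Corticosterone, the main glucocorticoid of mice, enters cells and binds the receptor encoded by Nr3c1, which is held in the cytosol by heat shock protein complexes. The bound receptor moves to the nucleus and switches on genes that include Fkbp5, a co-chaperone that lowers the receptor's affinity for hormone, Tsc22d3, which encodes the anti-inflammatory leucine zipper protein GILZ, and Sgk1, a serine/threonine kinase that regulates ion channels and transporters. Metallothioneins are small cysteine-rich proteins that bind zinc and copper. Their genes respond to zinc through the metal-sensing factor MTF-1, and Mt1 and Mt2 also respond to glucocorticoids in many tissues. Microglia are rich in glucocorticoid receptor, and their response to inflammatory stimuli is dampened through it.

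Total counts per sample ranged from 37680501 to 54131421. The 10 microglia markers summed to between 37800 and 48410 CPM (counts scaled to the library size) in every sample. The 10 astrocyte markers summed to 225.8 to 295.3 CPM in midbrain, 281.2 to 523.4 in striatum and 274.9 to 588.3 in PFC. Most of that sum was Slc1a3, and Gfap and Aqp4 were at 0 in at least 1 sample. The 9 oligodendrocyte markers reached 854.7 CPM in 1 striatum sample, whereas the endothelial, neuronal and border macrophage markers stayed at or below 70.36, 31.28 and 25.5 CPM. The 15 genes known to be induced while microglia are dissociated summed to 20940 to 50020 CPM, lowest in the striatum sample of S12 and highest in the midbrain sample of S7. The striatum sample of S3 carried a PFC name in the table but a striatum label, and it was used as striatum. Results whose call changed without it are given with and without it.

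Per kilobase of annotated exon, mean levels over the 35 samples followed the order Sgk1 (531 CPM per kb), Tsc22d3 (175), Mt1 (153), Nr3c1 (28.3), Mt2 (7.72) and Fkbp5 (5.38). The annotated exons of Mt1 together cover its whole span of 1246 bases, so its place in this order depends on the annotation. Sgk1 ranked 78 among the 21103 genes with a known exon length, and Tsc22d3 ranked 258. Samples ranged from 323 to 721 CPM per kb for Sgk1, above every sample of the other members. The ranges of Tsc22d3 and Mt1 overlapped, as did those of Nr3c1 and Mt2 and those of Mt2 and Fkbp5. The spread over samples also differed between the genes. The highest sample exceeded the lowest by 1.62 times for Nr3c1, 2.17 times for Fkbp5 and 2.23 times for Sgk1. It did so by 3.57 times for Mt1, 4.34 times for Tsc22d3 and 15.3 times for Mt2, whose counts ran from 54 to 931. Of the 588 annotated exonic bases of Mt2, 432 are shared with Gm45774, a gene on the opposite strand that is not in the count table. Whether counting used strand was not given in the sources used here. Reads of that pair therefore cannot be told apart in the level and spread of Mt2.

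**Figure D1:**
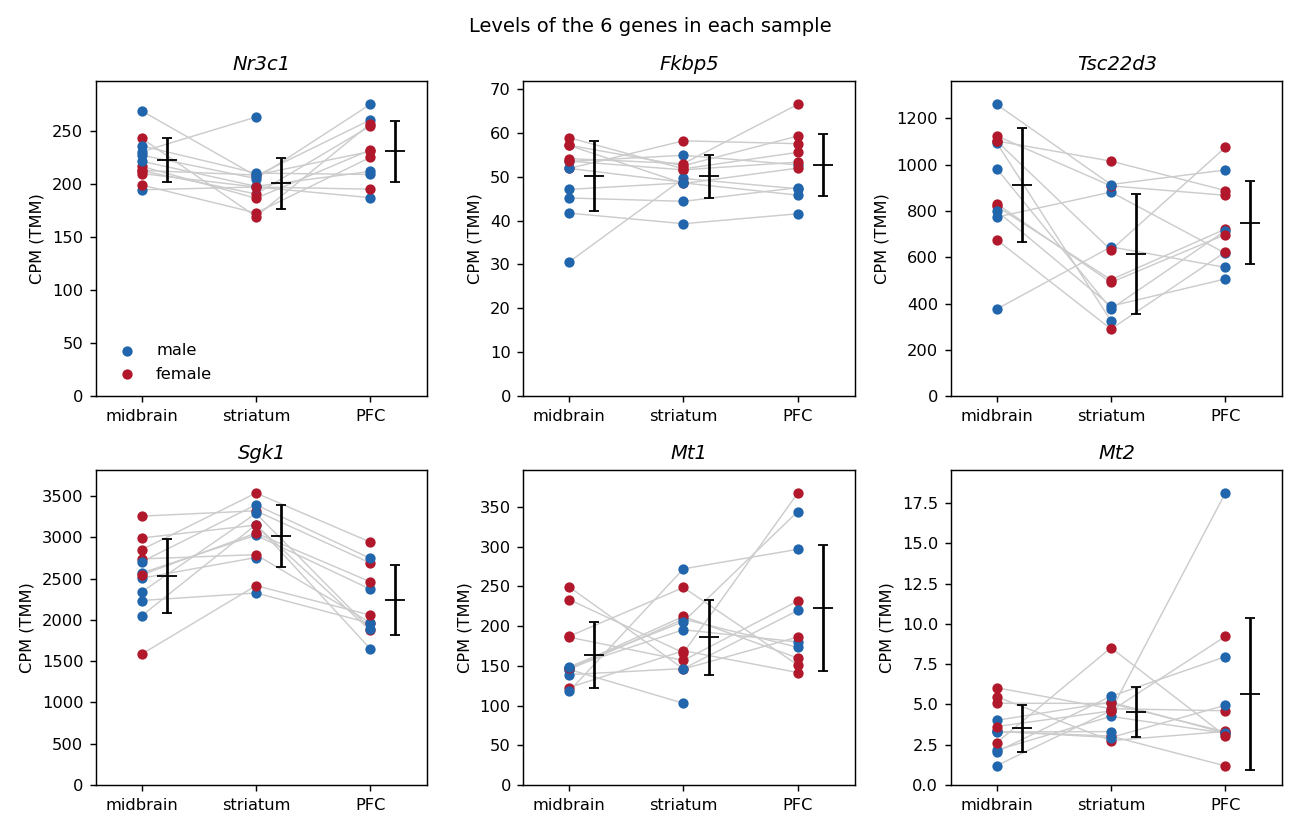
Levels in TMM-normalised CPM (y axis, from 0) of the 6 genes in each sample by brain region (x axis), with males in blue, females in red and grey lines joining samples of a mouse. Black bars are the mean and SD. Sgk1 was highest in striatum in all 12 mice among the regions measured, and Tsc22d3 spread from 290.1 to 1015 CPM within striatum alone.

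Sgk1 was the member with a region effect by edgeR's quasi-likelihood test over all genes (Benjamini-Hochberg adjusted p = 0.00598), against 8.89% of all 21236 genes. In striatum it ranged from 2326 CPM (S5) through a median of 3101 to 3537 (S6), with a mean of 3018 ± 379 (SD, n = 12). Midbrain ranged from 1585 (S12) through 2557 to 3258 CPM (S2), with a mean of 2531 ± 444 (SD, n = 12). PFC ranged from 1649 (S1) through 2058 to 2943 CPM (S6), with a mean of 2237 ± 426 (SD, n = 11). The ranges of the regions overlapped, but the order within a mouse did not vary at its upper end: striatum exceeded midbrain in 12 of 12 mice and PFC in 11 of 11. The mean difference within a mouse was 0.46 ± 0.25 (SD, n = 11) on the log2 CPM scale for striatum over PFC and 0.27 ± 0.22 (SD, n = 12) for striatum over midbrain. Exact two-sided permutation of the signs within mice gave p = 0.000977 and p = 0.000488, the smallest values that 11 and 12 mice allow. Tests of this kind were made for 3 pairs of regions in 6 genes, 18 in all, and their p-values are given unadjusted. PFC lay below midbrain in 8 of 11 mice (exact permutation p = 0.0664).

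In the model over all genes, Sgk1 was 1.36-fold higher in striatum than in PFC (log2 fold change 0.44 ± 0.096 SE, edgeR adjusted p = 0.0223) and was the single member called there, against 3.14% of all genes. A call between a pair of regions required a region effect, p below 0.05 and a change above 1.2-fold. Striatum against midbrain fell just under that fold (log2 fold change 0.26 ± 0.094 SE, 1.19-fold, edgeR adjusted p = 0.0907), so no member was called by edgeR or DESeq2, against 6.47% of all genes. At an unadjusted p below 0.05 there were 3 members, Sgk1, Tsc22d3 and Nr3c1, and 4279 of all 21236 genes. A fit that blocks on the mouse put this log2 difference at 0.26 as well, just past the fold minimum (edgeR adjusted p = 0.00896). None of the members was called for PFC against midbrain by edgeR or DESeq2, where 5.99% of all genes were by edgeR. An unadjusted p below 0.05 was reached there by 2 members, Mt1 and Mt2, and by 3607 of all genes. For Sgk1 the log2 fold change of PFC against midbrain was -0.18 ± 0.096 (SE, edgeR adjusted p = 0.340).

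The Sgk1 difference between striatum and PFC was as large with astrocyte markers as a covariate (log2 fold change 0.45), with the dissociation genes as a covariate (0.46) and without the striatum sample of S3 (0.45). The mean oligodendrocyte marker sum had the same order of regions as Sgk1. It was 483.5 ± 151.9 CPM (SD) in striatum, 400.7 ± 61.92 in midbrain and 336.8 ± 96.29 in PFC. Its part in the Sgk1 difference was not tested. The labels name no batch, so the mice were also divided by their numbers, S1 to S6 and S7 to S12, each set with 3 males and 3 females. The difference was as large among S1 to S6 (0.46) and among S7 to S12 (0.45). With 6 mice in place of 12 the region effect no longer passed the adjusted threshold (edgeR adjusted p = 0.0548 and 0.0607). Because samples are bulk RNA, a larger share of cells with high Sgk1 and more Sgk1 RNA per cell cannot be told apart.

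**Figure D2:**
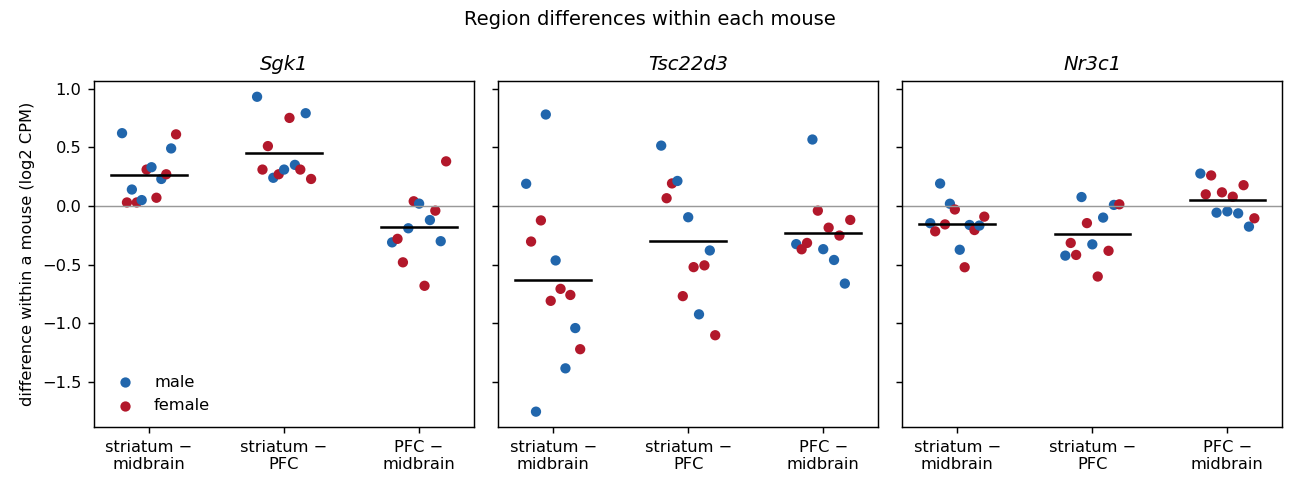
Differences between regions within each mouse (y axis, log2 CPM) for Sgk1, Tsc22d3 and Nr3c1, with 1 point per mouse (male blue, female red) and a black line at the mean. All Sgk1 points for striatum over midbrain and striatum over PFC lie above 0, whereas 10 of 12 Tsc22d3 points and 10 of 12 Nr3c1 points for striatum over midbrain lie below it.

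Sgk1 lies on chromosome 10 from 21882184 to 21999903 on the plus strand of GRCm38. RefSeq gives 6 start windows for it, each from 250 bases before to 50 bases after an annotated start. The one shown here holds a palindromic glucocorticoid response element, written GNACANNNTGTNC, which marks where paired receptor molecules bind DNA. The capitals mark the match, which begins 188 bases before the start at chr10:21993640-21993889 (GRCm38.p6, plus strand), a window inside the annotated gene.
Sgk1: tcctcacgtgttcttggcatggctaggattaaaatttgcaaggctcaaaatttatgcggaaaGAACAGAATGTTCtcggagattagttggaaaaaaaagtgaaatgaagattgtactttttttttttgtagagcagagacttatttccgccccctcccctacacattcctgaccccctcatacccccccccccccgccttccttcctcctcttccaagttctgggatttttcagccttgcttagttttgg
The other Sgk1 windows did not hold the element. The same letters were found in 0.475% of the 32851 start windows of all genes, a rate per window and not per gene with 6 windows. Reads were counted per gene, so which start the Sgk1 reads came from was not measured. None of the windows of Fkbp5 and Tsc22d3 held the element, which says only that these letters are not in those windows.

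Tsc22d3, the GILZ gene, was lowest in striatum. It lies on chromosome X from 140539528 to 140600659 on the minus strand of GRCm38. Striatum ranged from 290.1 CPM (S12) through a median of 567 to 1015 (S4), with a mean of 614 ± 258 (SD, n = 12). Midbrain ranged from 375.7 (S5) through 906.9 to 1260 CPM (S7), with a mean of 912 ± 246 (SD, n = 12). PFC ranged from 506.1 (S11) through 714.4 to 1074 CPM (S6), with a mean of 749 ± 180 (SD, n = 11). The regions overlapped widely, and 5 of the 6 lowest samples were striatum samples while the other was the midbrain sample of S5.

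Striatum was below midbrain in 10 of 12 mice, with a mean log2 difference of -0.63 ± 0.70 (SD, exact permutation p = 0.0127). PFC was below midbrain in 10 of 11 mice (-0.23 ± 0.31, SD, exact permutation p = 0.0400). The 6 female mice all had striatum and PFC below midbrain, and the exceptions were the males S1 and S5 for striatum and S5 for PFC. In the model over all genes Tsc22d3 did not reach a region effect (edgeR adjusted p = 0.125), with a log2 fold change for striatum against midbrain of -0.57 ± 0.19 (SE, edgeR adjusted p = 0.0617). When mice were blocked it did (edgeR adjusted p = 0.0248), and striatum against midbrain was called at -0.62 ± 0.16 (SE, adjusted p = 0.0107), as it was for 8.62% of all genes. The difference was -0.51 without the striatum sample of S3, -0.33 among S1 to S6 and -0.86 among S7 to S12.

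The 6 lowest samples of Tsc22d3 had sums of the 15 dissociation genes between 20940 and 38110 CPM, and those of the other samples, from 23400 to 50020 CPM, overlapped with them. Of these 6 samples, 3 were among the 6 lowest of that sum, against 1 or 2 for each other member. With the dissociation genes as a covariate the log2 difference of striatum against midbrain was -0.40 ± 0.13 (SE, edgeR adjusted p = 0.0655), and with astrocyte markers it was -0.48 ± 0.20 (SE).

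Nr3c1, the receptor gene, had the narrowest range of the members. It lies on chromosome 18 from 39410545 to 39519421 on the minus strand of GRCm38. PFC ranged from 186.9 CPM (S5) through 230.4 to 274.7 (S1), with a mean of 230 ± 28.5 (SD, n = 11). Midbrain ranged from 194.3 (S5) through 218.8 to 268.6 CPM (S7), with a mean of 222 ± 20.3 (SD, n = 12). Striatum ranged from 169.1 (S8) through 197.3 to 262.8 CPM (S3), with a mean of 200 ± 23.8 (SD, n = 12). The striatum sample of S3 stood apart, since the other 5 male striatum samples lay between 197 and 210 CPM.

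Striatum was below midbrain in 10 of 12 mice (mean log2 difference -0.15 ± 0.18, SD, exact permutation p = 0.0122) and below PFC in 8 of 11 (-0.24 ± 0.22, SD, exact permutation p = 0.00781). The model over all genes gave a region effect of adjusted p = 0.0664 (edgeR), with -0.21 ± 0.064 for striatum against PFC and -0.15 ± 0.063 for striatum against midbrain (log2 fold change, SE). The latter was -0.053 among S1 to S6, -0.26 among S7 to S12 and -0.099 with astrocyte markers as a covariate. When mice were blocked the region effect passed (edgeR adjusted p = 0.0157), and without the striatum sample of S3 it also passed (edgeR adjusted p = 0.0141). With astrocyte markers as a covariate it did not (edgeR adjusted p = 0.296). In each of these fits the differences stayed below the fold of 1.2, so no pair was called. PFC and midbrain overlapped over nearly their whole ranges, and PFC was higher in 6 of 11 mice.

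Fkbp5, the co-chaperone gene, had no region effect by the test over all genes (edgeR adjusted p = 0.843). It lies on chromosome 17 from 28399094 to 28517527 on the minus strand of GRCm38. Means were 50.2 ± 8.01 CPM in midbrain (SD, n = 12), 50.1 ± 4.90 in striatum (SD, n = 12) and 52.6 ± 7.03 in PFC (SD, n = 11). Its lowest sample was the midbrain sample of S5 at 30.59 CPM, in which Tsc22d3 was also the lowest of midbrain.

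Fkbp5 was instead the member with a difference between the sexes. Female samples ranged from 48.45 CPM through a median of 53.83 to 66.47, with a mean of 55.1 ± 4.13 (SD, 18 samples). Male samples ranged from 30.59 through 47.25 to 54.88 CPM, with a mean of 46.5 ± 5.95 (SD, 17 samples). The sexes overlapped between 48.45 and 54.88 CPM, and S1 was the male mouse with the highest level. Females were higher by a log2 fold change of 0.24 ± 0.055 (SE, 1.18-fold, edgeR adjusted p = 0.0339). That fit takes the samples of a mouse as independent, and with the mouse as a random effect the adjusted p was 0.176 (limma-voom, log2 fold change 0.25). As the difference lay under 1.2-fold, no member was called for sex by p and fold with edgeR or DESeq2, against 4.13% of all genes with edgeR. Fkbp5 was the 1 member with an unadjusted p below 0.05, which 1704 of all genes had. Over the 12 mouse means the difference was again 0.24, with an exact permutation p of 0.00649 for 6 against 6 mice. It was 0.29 among S7 to S12 (edgeR adjusted p = 0.0245) and 0.18 among S1 to S6 (edgeR adjusted p = 0.707).

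**Figure D3:**
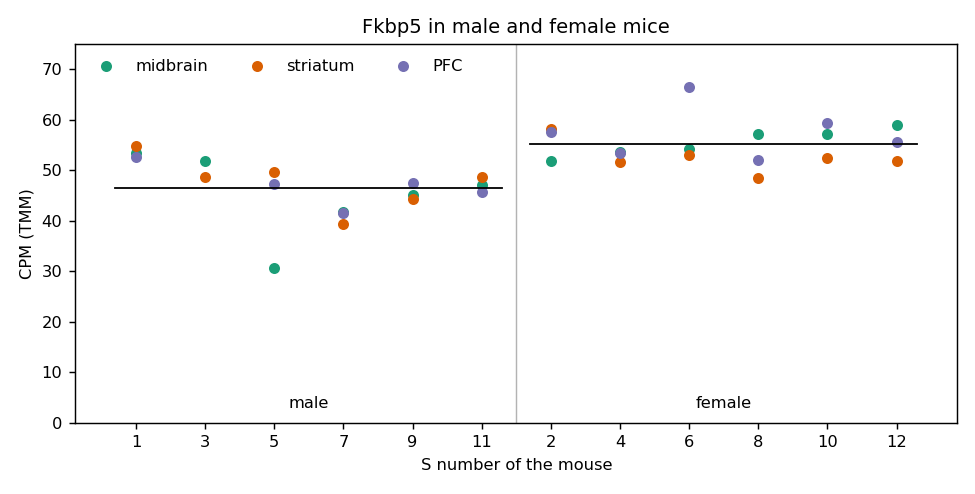
Fkbp5 in CPM (y axis, from 0) for each mouse (x axis), with midbrain in green, striatum in orange and PFC in violet. Horizontal lines are the means of the 17 male and 18 female samples, 46.5 and 55.1 CPM.

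For the other members the exact permutation p for sex over mouse means lay between 0.190 and 0.827. For Tsc22d3 and Sgk1 the sign of the female minus male difference varied with the mice compared. Among S1 to S6 the log2 difference was 0.56 for Tsc22d3 (edgeR adjusted p = 0.516) and 0.35 for Sgk1 (edgeR adjusted p = 0.370), and among S7 to S12 it was -0.30 (edgeR adjusted p = 0.793) and -0.14 (edgeR adjusted p = 0.838). The difference between these sets of mice was not tested. No member showed a region by sex interaction with edgeR or DESeq2 (edgeR adjusted p = 1 for each), and 0% of all genes did with edgeR. At an unadjusted p below 0.05 there were 632 genes, among them 1 member, Mt2.

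Mt1 was highest in PFC, though not beyond the adjusted threshold. It lies on chromosome 8 from 94179082 to 94180327 on the plus strand of GRCm38, 5513 bases past the end of Mt2 (94172664 to 94173568, plus strand). PFC ranged from 141.5 CPM (S2) through 186.3 to 367.5 (S12), with a mean of 223 ± 79.1 (SD, n = 11). Midbrain ranged from 117.9 (S5) through 147.5 to 249.4 CPM (S6), with a mean of 164 ± 41.7 (SD, n = 12). Striatum ranged from 102.8 (S3) through 182.2 to 272.1 CPM (S5), with a mean of 186 ± 47.3 (SD, n = 12). The 3 samples above 290 CPM were the PFC samples of S5, S11 and S12. PFC exceeded midbrain in 9 of 11 mice, with a mean log2 difference of 0.39 ± 0.55 (SD, exact permutation p = 0.0381). The region effect had an edgeR adjusted p of 0.180, and PFC against midbrain a log2 fold change of 0.44 ± 0.16 (SE, edgeR adjusted p = 0.108).

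Mt2 was the least abundant member by counts and the most uneven. Midbrain ranged from 1.199 CPM (S11) through 3.325 to 6.035 (S8), with a mean of 3.52 ± 1.45 (SD, n = 12). Striatum ranged from 2.753 (S6) through 4.607 to 8.519 CPM (S10), with a mean of 4.54 ± 1.57 (SD, n = 12). PFC ranged from 1.181 (S2) through 3.319 to 18.13 CPM (S11), with a mean of 5.65 ± 4.74 (SD, n = 11). S11 held the highest PFC value and the lowest midbrain value. The 3 PFC samples of highest Mt2 were those of S11, S12 and S5, as for Mt1. PFC exceeded midbrain in 6 of 11 mice (exact permutation p = 0.369). The log2 fold change was 0.69 ± 0.30 in the model (SE, edgeR adjusted p = 0.219), and fell to 0.25 without S11. It was -0.077 among S1 to S6 and 1.24 among S7 to S12 (edgeR adjusted p = 0.143), 0.44 with astrocyte markers as a covariate and 0.42 when mice were blocked.

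The region before each metallothionein start is shown because both genes are targets of MTF-1 and lie next to each other. The core of its binding site, the metal response element, was searched on both strands as TGCACNC and TGCGCNC, together with the glucocorticoid response element written above. Capitals mark every match within the 250 bases before the RefSeq start, at chr8:94178839-94179088 for Mt1 and chr8:94172368-94172617 for Mt2 (GRCm38.p6, plus strand).
Mt1: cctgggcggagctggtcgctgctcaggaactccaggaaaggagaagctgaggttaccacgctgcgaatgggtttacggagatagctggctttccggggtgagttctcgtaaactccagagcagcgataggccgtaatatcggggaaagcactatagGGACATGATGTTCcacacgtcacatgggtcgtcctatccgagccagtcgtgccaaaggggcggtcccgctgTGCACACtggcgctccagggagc
Mt2: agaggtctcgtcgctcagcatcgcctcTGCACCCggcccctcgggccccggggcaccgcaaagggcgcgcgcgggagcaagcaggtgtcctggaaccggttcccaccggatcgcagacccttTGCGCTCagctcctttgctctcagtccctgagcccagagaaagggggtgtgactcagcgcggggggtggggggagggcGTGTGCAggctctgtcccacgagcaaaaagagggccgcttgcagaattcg
With the 50 bases after the start included, Mt1 held 3 metal response cores and Mt2 held 4. At least 1 core was found in 25.7% of all 32851 windows and at least 3 in 1.97%. The longer stretch in capitals in Mt1, which begins 94 bases before the start, matches the glucocorticoid response element, and the Mt2 window held none.

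Differences among mice of the same sex were tested next, asking whether samples with the same S number moved together across regions. Sgk1 was the single member with a difference among S numbers (edgeR adjusted p = 0.0119), against 15.3% of all genes. All regions of S2, S6, S7 and S9 lay above the mean of their region and sex, and all regions of S5 and S12 lay below it. Averaged over regions, the deviation ran from -0.40 in S12 to 0.26 in S7 on the log2 CPM scale. The call rests on S12, without which the edgeR adjusted p was 0.0673, and it was lost when S1 to S6 against S7 to S12 was a covariate (0.0568).

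Tsc22d3 had a wider spread among mice, from -0.61 in S12 to 0.65 in S7, and the same mice stood at both ends as for Sgk1. All regions of S2, S4, S6 and S7 lay above the mean of their region and sex, and all regions of S8, S10, S11 and S12 lay below it. Its edgeR adjusted p for a difference among S numbers was 0.0764. It was 0.0361 without the striatum sample of S3 and 0.000964 with the dissociation genes as a covariate, and DESeq2 gave 0.0115. It was 0.248 with S1 to S6 against S7 to S12 as a covariate, 0.135 with astrocyte markers as a covariate and 0.268 without S7. Within S1 to S6 it was 0.970 and within S7 to S12 it was 0.0223. For Nr3c1, Fkbp5, Mt1 and Mt2 it was 0.192, 0.258, 0.442 and 0.741. With the dissociation genes as a covariate it passed also for Fkbp5 (0.0167) and Mt1 (0.00324). The share of all genes that passed in that fit was not computed.

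**Figure D4:**
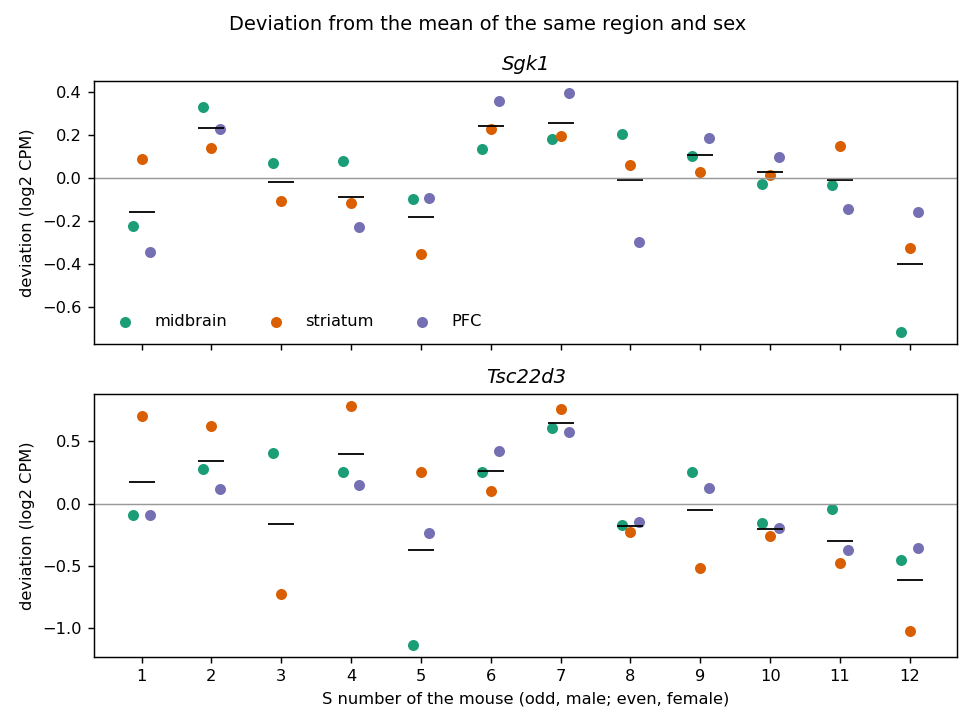
Deviation of each sample from the mean of its region and sex (y axis, log2 CPM) for Sgk1 and Tsc22d3 by mouse (x axis), with midbrain in green, striatum in orange, PFC in violet and a black dash at the mean of a mouse. All samples of S7 lie above 0 and all samples of S12 below 0 in both genes.

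As a share of the variance of log2 CPM over the 35 samples, region accounted for 37% of Sgk1, 24.6% of Nr3c1, 23.2% of Tsc22d3, 15.4% of Mt1, 7.86% of Mt2 and 2.76% of Fkbp5. The median over the 12297 genes with a mean of at least 1 CPM was 8.60%. S number within sex accounted for 42.6% of Tsc22d3 and 39.6% of Sgk1, near the median of 41.1% over those genes, and for 19% of Mt2. Region would take 5.88% and S number 29.4% of the variance by their degrees of freedom alone. Sex accounted for 39.5% of Fkbp5, against a median of 1.58%. The part that neither region, sex nor mouse took up was largest for Mt2 (73%) and Mt1 (54.6%).

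Relations between members were tested over the 12 mouse means of the deviations, for all 15 pairs of members. Taking out the region and sex means ties the deviations of mice of one sex to each other. The permutations moved values freely across mice of both sexes, so their p-values are approximate. Within S1 to S6 and within S7 to S12, exact means that every order of the mice was enumerated. Mt1 and Mt2 did not reach a difference among S numbers in the main fit (edgeR adjusted p = 0.442 and 0.741). The regions of a mouse deviated in mixed directions in 9 of 12 mice for Mt1 and 10 of 12 for Mt2. Their mouse means therefore average samples that often did not move together. Mt1 and Mt2 rose and fell together (Pearson r = 0.705, permutation p = 0.00931, adjusted p = 0.0393, Spearman rho = 0.678, p = 0.0183). Without S3 and S12, the mice farthest from the median of Mt1, r was 0.796. Without S2, the mouse of lowest Mt2, r was 0.557 (permutation p = 0.0756). Within S1 to S6 and within S7 to S12, r was 0.803 (exact permutation p = 0.0444) and 0.806 (exact permutation p = 0.0653). Mt1 was also the gene nearest to Mt2 among 8607 genes over the 35 samples (r = 0.758). In that comparison the points share mice, regions and depth.

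Sgk1 and Mt2 moved in opposite directions (r = -0.765, permutation p = 0.00386, adjusted p = 0.0393, rho = -0.804, p = 0.00241). Without S7 and S12 r was -0.684, and within S1 to S6 and S7 to S12 it was -0.713 (exact permutation p = 0.118) and -0.747 (exact permutation p = 0.0972). Tsc22d3 and Mt2 had r = -0.701 (permutation p = 0.00882, adjusted p = 0.0393, rho = -0.720), but -0.0635 within S1 to S6 and -0.839 within S7 to S12. Without the striatum sample of S3 this r was -0.519 (permutation p = 0.0805). Tsc22d3 and Sgk1 had r = 0.702 (permutation p = 0.0105, adjusted p = 0.0393, rho = 0.594), which rests on S7 and S12: without them r was 0.397. Within S1 to S6 it was -0.188 and within S7 to S12 it was 0.814 (exact permutation p = 0.0431), so the relation did not hold in both sets of mice.

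**Figure D5:**
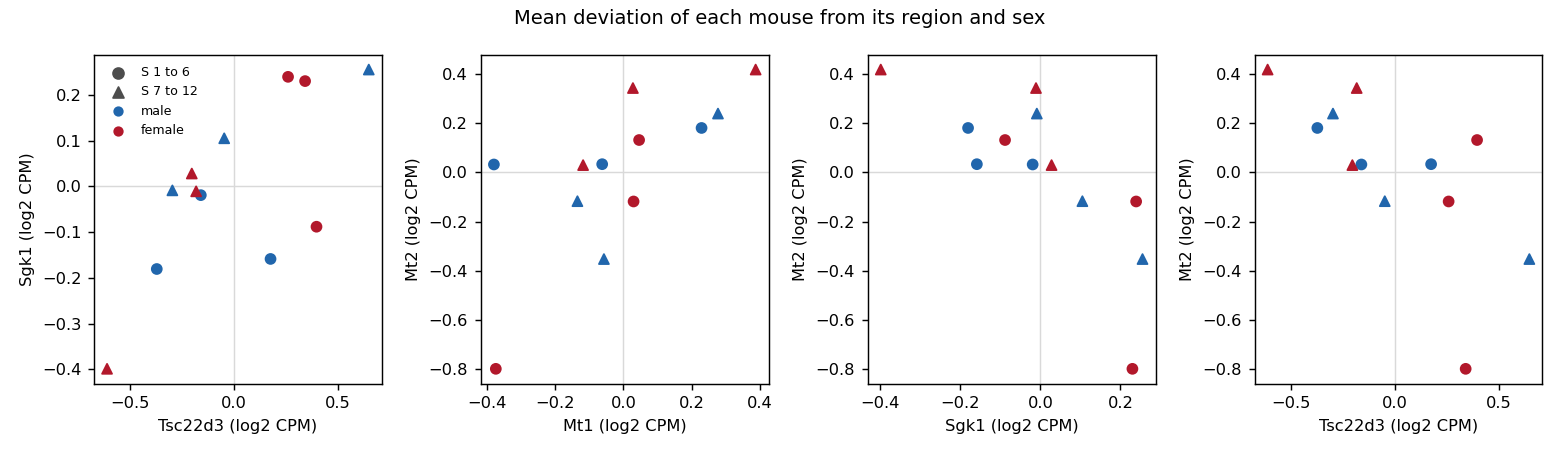
Mean deviation of each mouse from its region and sex (log2 CPM, both axes) for the 4 pairs of genes with an adjusted permutation p below 0.05. Circles are S1 to S6 and triangles S7 to S12, with males in blue and females in red, and the lowest Mt2 point is S2 at -0.80.

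The other 11 pairs had adjusted p-values between 0.119 and 0.972. Nr3c1 was related to none of its targets beyond that threshold, with r = 0.580 for Tsc22d3 (permutation p = 0.0477, adjusted p = 0.119), 0.361 for Sgk1 and 0.296 for Fkbp5. The first of these turned on S3: without its striatum sample Nr3c1 and Tsc22d3 had r = 0.715 (permutation p = 0.00844, adjusted p = 0.0448), and without that mouse r = 0.743 (adjusted permutation p = 0.0382). Sgk1 and Mt1 likewise had r = -0.594 over all samples (permutation p = 0.0406, adjusted p = 0.119) and r = -0.693 without the striatum sample of S3 (permutation p = 0.0119, adjusted p = 0.0448). For Nr3c1 and Fkbp5, r was 0.854 within S1 to S6 (exact permutation p = 0.0361) and -0.912 within S7 to S12 (exact permutation p = 0.0236), opposite signs in the 2 sets of mice. Of the 4 relations that passed, that of Sgk1 with Mt2 also passed by rank (adjusted p = 0.0361). When each mouse was left out in turn, between 0 and 6 of the 15 pairs passed, so the adjusted calls depended on which mice were included. The r itself ran from -0.819 to -0.721 for Sgk1 with Mt2 and from -0.807 to -0.621 for Tsc22d3 with Mt2. It ran from 0.538 to 0.818 for Tsc22d3 with Sgk1 and from 0.557 to 0.836 for Mt1 with Mt2.

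The genes nearest to each member over the 35 samples differed between members. Nr3c1 was nearest to Mef2c (r = 0.803), a transcription factor of microglia, and to Mgat4a (0.798) and Ccdc50 (0.791). Tsc22d3 was nearest to Crlf3 (0.862), Zfp330 (0.856) and Mdm2 (0.815), the ubiquitin ligase of p53. Sgk1 was nearest to Cwf19l1 (0.70), Rgs2 (0.698), a regulator of G protein signalling, and Gga3 (0.689). Fkbp5 was nearest to 1810030O07Rik (0.737), Srsf11 (0.728) and Xrcc6 (0.678). Genes near to Mt1 included Plaur (0.808), the urokinase receptor, and Litaf (0.806). Mt2 was followed by Cpe (0.664) and Arid5b (0.643) after Mt1. No gene was named for more than 1 member, and Mt1 was the only member among these neighbours.

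Of 23 further known glucocorticoid targets, 4 had a region effect (against 8.89% of all genes) and 7 differed among S numbers (against 15.3%). These 4 did not share a direction. Cdkn1a, an inhibitor of the cell cycle, was highest in midbrain at 238 ± 70.4 CPM (SD, n = 12), against 108 ± 41.4 in striatum and 133 ± 52.1 in PFC (edgeR adjusted p for region 0.000685). Errfi1, a feedback inhibitor of the EGF receptor, had 208 ± 67.4 CPM in midbrain, 137 ± 44.0 in striatum and 177 ± 35.2 in PFC (edgeR adjusted p = 0.0388). Txnip, an inhibitor of thioredoxin, was highest in striatum, as Sgk1 was, at 1315 ± 181 CPM against 941 ± 211 in midbrain and 1114 ± 173 in PFC (edgeR adjusted p = 0.00707). Fam107a was low throughout, with 3.26 ± 1.63 CPM in striatum, 2.01 ± 1.69 in PFC and 0.607 ± 0.526 in midbrain (edgeR adjusted p = 0.0028). As Fam107a is also known in astrocytes, it moved in the direction of the astrocyte marker sum, whose part in the result was not tested.

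The targets that differed most among mice were Cebpd, Zfp36, Rhob and Nfkbia (edgeR adjusted p 0.000452, 0.000939, 0.00117 and 0.00638), which encode a C/EBP transcription factor, an mRNA decay factor, a small GTPase and the inhibitor of NF-kappaB. Cebpd, Zfp36 and Rhob were lowest in S11, at -0.72 to -0.63 on the log2 scale, whereas Sgk1 and Tsc22d3 were lowest in S12. Over the 12 mice their r with Tsc22d3 was 0.605, 0.507 and 0.59, and with Sgk1 0.282, 0.266 and 0.171. For Nfkbia, r was 0.339 with Tsc22d3 and -0.142 with Sgk1. None of these relations was tested. Of the 15 dissociation genes, 8 differed among mice, against 15.3% of all genes.

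Among 15 genes of the receptor complex and of steroid handling, 2 had a region effect and 5 differed among S numbers, against 8.89% and 15.3% of all genes. One of them was Ncor1, a nuclear corepressor that silences genes with unliganded receptors. It had 53.0 ± 8.02 CPM in striatum, 40.5 ± 6.36 in midbrain and 45.9 ± 9.36 in PFC (edgeR adjusted p = 0.0326), and was called higher in striatum than in midbrain. The coactivator Ncoa1 and the chaperones Hsp90aa1, Hsp90ab1 and Stip1, which fold the receptor, differed among mice (edgeR adjusted p 0.000368, 0.00134, 0.00532 and 0.0106). Hsp90aa1 and Hsp90ab1 were highest in S12, the mouse with the lowest Sgk1 and Tsc22d3, and lowest in S2. Over the 12 mice, r with Sgk1 and with Tsc22d3 was -0.388 and -0.372 for Hsp90aa1. It was -0.166 and -0.251 for Hsp90ab1. Stip1 was instead highest in S7, with r of 0.0103 and -0.147. Other listed genes had larger r with both, among them Txnip (0.698 and 0.596) and the metallothionein gene Mt3 (-0.639 and -0.703). These relations were not tested.

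Of 24 measured genes of zinc transport and metallothionein biology, 3 had a region effect and 5 differed among S numbers, against 8.89% and 15.3% of all genes. Slc39a12, a zinc importer, rose from 13.8 ± 2.31 CPM in midbrain to 22.1 ± 4.0 in striatum and 28.3 ± 3.71 in PFC (SD, edgeR adjusted p = 2.42e-09). Mt3, the metallothionein of neural cells, was higher in striatum (9.06 ± 3.31 CPM) and PFC (7.53 ± 3.78) than in midbrain (4.45 ± 1.64, edgeR adjusted p = 0.00891). The astrocyte marker sum was also higher in both regions than in midbrain, and its part in the Mt3 result was not tested. Slc39a14, another importer, was highest in midbrain at 15.3 ± 2.13 CPM, against 11.2 ± 1.41 in striatum and 11.6 ± 3.02 in PFC (edgeR adjusted p = 0.00499). The calls among mice included Slc39a13, Slc30a6, Slc39a4 and Slc39a10 (edgeR adjusted p 0.00671, 0.0134, 0.0157 and 0.0174).

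Among 10 relatives and partners of SGK1 and GILZ, 1 had a region effect and 2 differed among S numbers, against 8.89% and 15.3% of all genes. Tsc22d1, which encodes a related leucine zipper protein, was highest in midbrain at 67.1 ± 20.3 CPM, against 38.7 ± 16.2 in striatum and 42.0 ± 14 in PFC (edgeR adjusted p = 0.0195), and both differences were called. Sgk3, a related kinase, and Rictor, a subunit of the complex that activates SGK1, differed among mice (edgeR adjusted p 0.000488 and 0.0325). The median log2 fold change of PFC against midbrain was 0.12 for the glucocorticoid targets, -0.072 for the receptor and steroid genes, 0.022 for the zinc genes and -0.13 for the relatives of SGK1 and GILZ, beside 0.011 over all genes. For striatum against midbrain these medians were -0.034, -0.029, -0.0074 and -0.028, beside 0.013 over all genes. Over the 4 lists together, 10 of 72 genes (13.9%) had a region effect and 19 (26.4%) differed among S numbers, against 8.89% and 15.3% of all genes. These sets differ in level. A mean of at least 1 CPM was reached by 16 of 23 targets, 12 of 15 receptor and steroid genes, 20 of 24 zinc genes and 9 of 10 relatives. Over all genes it was reached by 12297 of 21236, and the shares were not matched for level. When mice were blocked, 16 of the 72 had a region effect, against 14% of all genes.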

How the data were processed

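Gene counts of 35 sorted microglia samples were analysed. The authors made full-length cDNA libraries (Smart-Seq HT, Nextera XT), trimmed reads with Trimmomatic, checked them with FastQC, aligned them with HISAT2 to Ensembl GRCm38 and deposited raw counts after removing genes below the CPM minimum in every group of sex and region. The counting program, annotation release and use of strand were not given in the sources used here. Symbols came from GENCODE M21 and promoters from RefSeq. RefSeq windows matched 5 of the 6 members. The groups were taken from the labels. The 6 members and the gene lists were chosen with earlier results of these data known.

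Counts were fitted over all 21236 genes with edgeR 4.0.16 (TMM, quasi-likelihood) in R 4.3.3, with region and sex, and with S number nested in sex for differences among mice; p-values were adjusted by Benjamini-Hochberg. CPM are TMM-normalised (factors 0.961 to 1.05), and log2 CPM used a prior count of 2. Relations used 100000 permutations. Counts set the precision: the lowest count of a member in a sample was 54. Scripts were tested on simulated data. Alternatives were DESeq2 1.42.0, limma 3.58.1 (voom, mouse as a random effect), other scaling and filters (at least 10 counts in every sample, filterByExpr), the covariates and subsets given with the results, and leaving out each mouse; the exact tests over mice were added after seeing the data.

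Same-numbered samples were taken to come from the same animal, from the S number in the labels: their deviations from group means correlated with a mean r of 0.225 (34 pairs, of which 27 were over 0.1), against -0.0431 between mice of the same sex. The named genes were the members, the up to 4 genes of each list with the lowest adjusted p for region and for S number among those called whose mean reached 1 CPM, and the 3 genes nearest to each member whose mean reached 8 CPM. Of 27 zinc genes listed, 24 were in the table. Some genes that this rule names are not reported here.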

Additional observations from a re-analysis of the deposited data

Results flagged for a closer look

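Within the 36 groups of a member, a region and a sex, 2 samples stood far from the rest of their group by Dixon's test at the 95% level, a rate that chance alone gives in about 1 of 20 groups. The striatum sample of S3 had 263 CPM of Nr3c1, while the other 5 male striatum samples lay between 197 and 210 CPM. This is the sample whose name in the table gave another region than its label. The midbrain sample of S5 had 118 CPM of Mt1, while the other 5 male midbrain samples lay between 139 and 149 CPM.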

How the results depend on the processing

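With 1 member called for region as the main count, blocking on the mouse (replicate block) and limma-voom with the mouse as a random effect each gave 3 (Sgk1, Nr3c1 and Tsc22d3), while DESeq2, S1 to S6 against S7 to S12 as a covariate, and the fit without the striatum sample of S3 gave 2, and S1 to S6 alone or S7 to S12 alone gave 0. Leaving out each mouse gave 1 to 2. For striatum against midbrain, with 0 called, the replicate block gave 2, and limma-voom, the astrocyte and the dissociation covariates and no fold minimum gave 1 each; leaving out each mouse gave 0 to 1. For striatum against PFC, limma-voom gave 2 and either set of 6 mice 0, against 1. For sex, with 0 called, S1 to S6 alone gave 2, and S7 to S12 alone, the dissociation covariate and no fold minimum gave 1; leaving out each mouse gave 0 to 1. For differences among S numbers, DESeq2, filterByExpr and the fit without the striatum sample of S3 gave 2, the dissociation covariate gave 4, S1 to S6 alone and the covariate for both sets gave 0, and leaving out each mouse gave 0 (without S12) to 3 (without S5). The replicate block raised the listed genes with a region effect from 10 to 16, and S1 to S6 alone gave 3. With the replicate block, 14% of all genes had a region effect and 8.62% were called for striatum against midbrain. Shares of all genes were not computed for the other alternative fits, so their counts cannot be set against such a share.

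The 4 relations became 0 in S1 to S6 and in S7 to S12, and 0 to 6 when each mouse was left out, 6 without S3. Directions that reversed were Mt2 in PFC against midbrain (-0.077, S1 to S6), the sex differences of Tsc22d3 (-0.30) and Sgk1 (-0.14) in S7 to S12, the r of Tsc22d3 with Sgk1 (-0.188, S1 to S6) and the r of Nr3c1 with Fkbp5 (-0.912, S7 to S12, and -0.0482 to 0.674 when each mouse was left out). The cause was not tested. The block changed no other call. Subsets of 6 mice, and counts near 54 for Mt2, limit what these data can show.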
